A study of Mus musculus with 9 samples.

Results

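Among 9 uterus libraries from a study of bisphenol exposure, 4 carried a strong signal of urothelial genes and 5 did not. The 4 urothelium-high libraries are BPB 1, BPB 2, BPB 3 and BPAF 1. The 5 urothelium-low libraries are BPAF 2, BPAF 3, control 1, control 2 and control 3. Libraries were chosen by the mean log2(FPKM + 1) of Upk1a, Upk1b, Upk2 and Upk3a, with 4 or more counted as high. FPKM counts fragments per transcript length and per library total, so it can be compared between genes.

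The libraries came from the uterus of wild-type mice, females of the outbred stock CD-1 (ICR) that were 7 to 8 weeks old when bought. For 28 days the mice received by gavage bisphenol B (BPB) or bisphenol AF (BPAF), each at a daily 300 µg per kg of body weight, or corn oil (control), and each group has 3 libraries. BPB and BPAF are bisphenols that are used in place of bisphenol A. The stage of the estrous cycle is not given in the labels, which limits each group as a model, and the replicates are separate mice only as far as the labels say, so that the p-values below measure the spread between these libraries, which may be technical. High and low coincide with treatment in 8 of the 9 libraries. All 3 BPB libraries were high and all 3 control libraries low, so the uroplakin split and BPB treatment cannot be told apart in those 6. BPAF 1 is the only high library whose treatment also has low libraries.

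The urothelium is the stratified lining of the renal pelvis, ureter, bladder and proximal urethra. Its surface cells cover themselves with plaques of uroplakins, membrane proteins that pair as Upk1a with Upk2 and Upk1b with Upk3a, and these plaques contribute to the barrier against urine. The uterus develops from the Müllerian duct, is lined by a simple columnar epithelium, and is not known for uroplakin plaques. The bladder and the uterus lie side by side and both have a thick wall of smooth muscle.

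The libraries rested on 12620198 to 15615343 reads, as read from the smallest steps in their values. One read in a transcript of 1 kb was worth 0.0640 to 0.0792 FPKM, so a count of 0 allows a level of up to 0.192 to 0.238 FPKM for such a transcript (3 reads, counting error only). Between 11614 and 13105 genes reached 1 FPKM per library. Transcripts of the mitochondrial genome took 19.6% to 27.0% of the FPKM sum in the high libraries and 14.0% to 34.1% in the low ones, with control 3 at the top. Genes of the uterus were present in both sets. Hoxa11, a homeobox gene of uterine development, had 21.1 to 66.5 FPKM in high and 14.3 to 99.8 FPKM in low libraries. Esr1, the estrogen receptor alpha, had 12.9 to 20.1 FPKM in high and 20.6 to 29.6 FPKM in low libraries. It was thus lower in every high library than in any low one, with a mean log2(FPKM + 1) difference of -0.73. The 18 tested members of a list of uterine position and identity had a mean of 3.63 to 4.02 on the log2(FPKM + 1) scale in high and 3.13 to 4.07 in low libraries, so the sets overlapped on this mean. The list member Wnt4 was above every low library in each high one, with a difference of 1.32.

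The mean log2(FPKM + 1) of the 4 uroplakin genes was 8.32 in BPB 1, 8.92 in BPB 2, 9.04 in BPB 3 and 8.11 in BPAF 1. It was 0.37 in BPAF 2, 1.28 in BPAF 3, 0.56 in control 1, 0.81 in control 2 and 0.35 in control 3. The nearest libraries on either side of the threshold are thus BPAF 1 at 8.11 and BPAF 3 at 1.28, and no library lies between. Any of the 4 genes taken alone gave the same 4 libraries. Together the 4 genes took 0.306% to 0.669% of the FPKM sum of a high library and at most 0.00295% of that of a low one. Because these values chose the libraries, they are a description and carry no test.

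**Figure D1:**
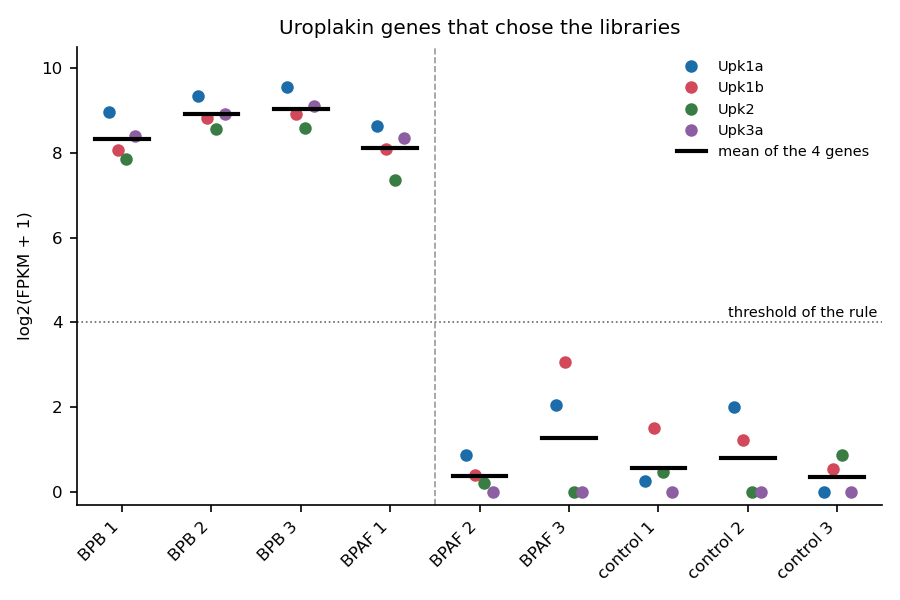
Level of Upk1a, Upk1b, Upk2 and Upk3a in each library, as log2(FPKM + 1), with libraries along the horizontal axis, high ones left of the dashed line, and black bars at the mean of the 4 genes. The means of the 4 high libraries lie between 8.11 and 9.04 and those of the 5 low libraries between 0.35 and 1.28.

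Upk1a had 497, 653 and 758 FPKM in BPB and 399.5 in BPAF 1, against 0.838 and 3.14 in BPAF 2 and 3 and 0.203, 2.98 and 0 in the controls. Upk3a had 335, 484 and 547 FPKM in BPB and 323 in BPAF 1, against 0 and 0 in BPAF 2 and 3 and 0, 0 and 0 in the controls. Every low library was thus listed at 0 for Upk3a, while the gene ranked from 63 to 113 among all genes in the high ones. Upk1b had 269, 449 and 480.4 FPKM in BPB and 270.4 in BPAF 1, against 0.310 and 7.35 in BPAF 2 and 3 and 1.84, 1.35 and 0.448 in the controls. BPAF 3 held the highest level among the low libraries for both tetraspanin uroplakins, Upk1a and Upk1b. Upk2 had 229.6, 379.7 and 381 FPKM in BPB and 163 in BPAF 1, against 0.157 and 0 in BPAF 2 and 3 and 0.380, 0 and 0.817 in the controls. In whole tissue, fewer cells of a type and less RNA per cell cannot be told apart.

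Promoter sequences of genes on each side of the split, 250 bases before to 50 after the annotated start, are shown to give the DNA behind genes that were high or low in the same libraries. They come from RefSeq on GRCm38.p6, whose table held 8 of the 15 genes with the largest positive and 8 of the 12 with the largest negative difference. Upk1a (chr7:30612685-30612984, minus strand) and Upk3a (chr15:85016891-85017190, plus strand) encode plaque proteins. Fam25c (chr14:34355344-34355643, minus strand) and Aqp3 (chr4:41098134-41098433, minus strand), which encodes a water and glycerol channel, were high in the same 4 libraries. Krt12 (chr11:99422210-99422509, minus strand), a keratin gene known from the corneal epithelium, was low in them. Capitals mark matches, on either strand, to AGATAA (bound by GATA factors), TGTTTAC (FOXA factors), AACCNGGTT (grainyhead-like factors), GGGTGTGG (KLF factors) or TATAAA (the TATA box), and no match here overlaps another.
Upk1a: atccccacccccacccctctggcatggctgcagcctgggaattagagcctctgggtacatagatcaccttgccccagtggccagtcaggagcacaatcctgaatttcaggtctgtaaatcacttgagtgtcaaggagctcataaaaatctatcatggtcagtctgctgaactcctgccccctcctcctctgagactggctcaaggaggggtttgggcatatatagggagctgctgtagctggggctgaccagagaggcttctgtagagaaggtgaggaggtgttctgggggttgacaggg
Upk3a: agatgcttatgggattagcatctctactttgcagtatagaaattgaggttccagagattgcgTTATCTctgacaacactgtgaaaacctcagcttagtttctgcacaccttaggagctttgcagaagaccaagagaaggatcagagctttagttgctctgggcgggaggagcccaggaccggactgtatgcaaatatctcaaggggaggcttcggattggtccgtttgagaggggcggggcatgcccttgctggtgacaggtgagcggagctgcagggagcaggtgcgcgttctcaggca
Fam25c: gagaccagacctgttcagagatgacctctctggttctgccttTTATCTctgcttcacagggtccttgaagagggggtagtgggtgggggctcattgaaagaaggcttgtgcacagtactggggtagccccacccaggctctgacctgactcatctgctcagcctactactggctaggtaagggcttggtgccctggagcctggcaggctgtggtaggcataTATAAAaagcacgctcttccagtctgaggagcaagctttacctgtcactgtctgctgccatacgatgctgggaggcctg
Aqp3: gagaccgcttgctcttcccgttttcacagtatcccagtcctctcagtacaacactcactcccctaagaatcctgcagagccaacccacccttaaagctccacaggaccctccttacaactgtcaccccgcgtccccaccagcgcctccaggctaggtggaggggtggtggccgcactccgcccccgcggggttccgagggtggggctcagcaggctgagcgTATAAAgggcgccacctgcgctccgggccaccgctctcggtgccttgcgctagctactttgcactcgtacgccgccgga
Krt12: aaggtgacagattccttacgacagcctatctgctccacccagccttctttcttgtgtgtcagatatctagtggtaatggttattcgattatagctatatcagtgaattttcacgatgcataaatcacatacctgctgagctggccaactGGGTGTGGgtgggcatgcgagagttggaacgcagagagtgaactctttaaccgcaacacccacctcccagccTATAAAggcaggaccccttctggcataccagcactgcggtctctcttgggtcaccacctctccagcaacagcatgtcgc

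In these letters Upk3a and Fam25c hold AGATAA on the reverse strand, 188 to 183 and 208 to 203 bases upstream of the start. Fam25c, Aqp3 and Krt12 hold TATAAA 29 to 24 bases upstream, and Krt12 also holds GGGTGTGG 101 to 94 bases upstream. Upk1a has none of the 5. Among all 27025 promoters of the table, AGATAA occurs in 11.4%, TGTTTAC in 3.55%, AACCNGGTT in 0.266%, GGGTGTGG in 3.57% and TATAAA in 14.2%. Of the 8 promoters of genes with the largest positive differences, 3 hold AGATAA and 4 hold TATAAA. Of the 8 on the negative side, 2 hold TATAAA and none holds AGATAA. These are matches of letters and not evidence of binding.

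Across 13743 genes with 1 FPKM or more in at least 3 libraries, 408 were higher in the high libraries, or 2.97% of the genes tested, and 46 were lower, or 0.335%. Higher or lower here means that the 4 libraries did not overlap the 5 and that the means differed by 1 or more on the log2(FPKM + 1) scale. Without the size condition 733 genes (5.33%) lay above and 111 (0.808%) below. By 2 or more 144 genes were higher and 8 lower, and by 5 or more 20 were higher and none lower. The counts depend on single libraries, and without BPAF 3 they were 617 higher and 199 lower. In 148 of the 408 genes all 5 low libraries stood under 1 FPKM, and 21 of them were listed at 0 in every low library. Genes that reach 1 FPKM only in the high libraries had to differ. The median difference over all genes was 0.08, and scaling the libraries by median ratios moved it by -0.14. No p-value is given for this contrast, since the libraries were chosen by values of the same kind.

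Part of the contrast can be read from the labels alone. In limma, fitted on all 9 libraries with treatment as the term, 282 genes rose in BPB against control at an adjusted p under 0.05, or 2.05% of the genes tested, and 69 fell, or 0.502%. Of the 282 genes, 182 were among the 408, which is 64.5% of the 282 and 44.6% of the 408. Of the 69 genes, 11 were among the 46, which is 15.9% of the 69 and 23.9% of the 46. The limma calls rest on single libraries: without control 1, BPB 2 or BPB 3 no more than 1 gene rose and no more than 2 fell, with 1131 to 1420 higher and 404 to 491 lower at an unadjusted p under 0.05, against 1755 and 632 with all libraries. Without control 2 the counts were 68 and 31, without control 3 they were 36 and 35, and without BPB 1 they were 192 and 29.

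BPAF 1, BPAF 2 and BPAF 3 share no library with the BPB and control groups, so they give a second reading of the same split with 1 library against 2 and no test. The limma fit takes its spread from all 9 libraries, so the BPAF spread bears on which genes passed. Fitted on the 6 BPB and control libraries alone, 416 genes rose and 87 fell, and the shares given next were 77.4% and 27.6%. Of the 282 genes that rose in BPB, 223 (79.1%) were above both BPAF 2 and BPAF 3 in BPAF 1, against 34.3% of all genes. By 1 or more on the log2 scale it was 117 of 282 (41.5%), against 5.71% of all genes. The 4 uroplakin genes that chose the libraries, BPAF 1 among them, are part of the 282, the 223 and the 117. Others of the 282, such as Foxa1 and Shh, passed the filter only through the high libraries. No support is drawn from these shares. The median BPAF 1 minus BPAF 2 and 3 difference of the 282 genes was 0.83, while their median BPB minus control difference was 1.99. Of the 69 genes that fell in BPB, 20 (29.0%) were below both in BPAF 1, against 29.9% of all genes, and 4 (5.80%) by 1 or more, against 2.73%. Their median BPAF difference was -0.15, beside a median BPB minus control difference of -2.07. The share for the genes that fell depends on BPAF 3: of the 69 genes, 78.3% stood below BPAF 2, against 48.5% of all genes, and 36.2% stood below BPAF 3, against 47.1% of all genes. Of the 282 genes, 91.1% stood above BPAF 2 and 84.0% above BPAF 3, against 51.5% and 52.8% of all genes.

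**Figure D2:**
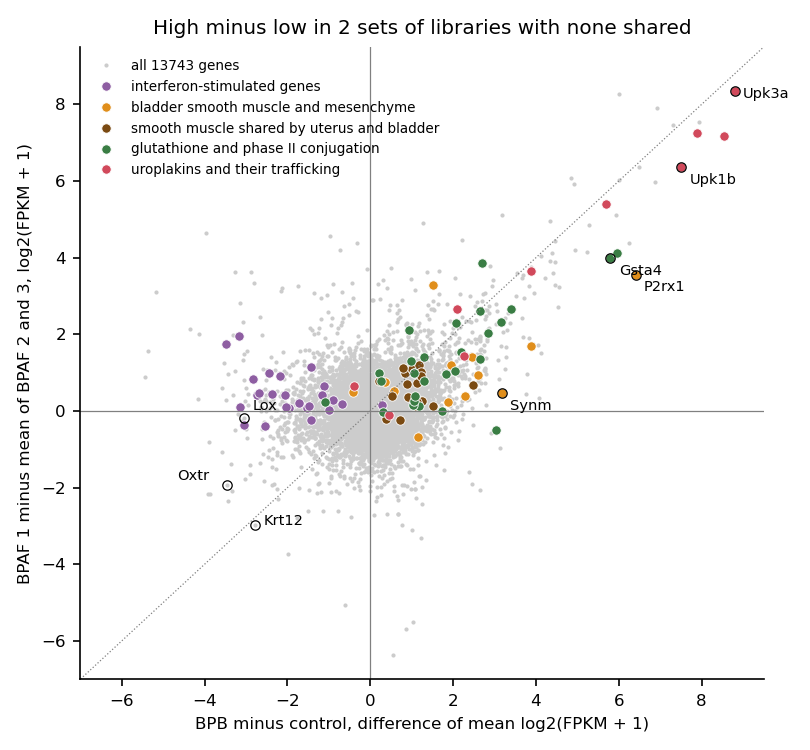
BPB minus control (horizontal, difference of mean log2(FPKM + 1)) against BPAF 1 minus the mean of BPAF 2 and 3 (vertical, same scale) for 13743 genes, with gene lists coloured, named genes ringed and the dotted line marking equal differences. Uroplakin and conjugation genes lie toward the upper right, muscle genes lie to the right and low, interferon-stimulated genes lie left of 0 and around or above 0 vertically.

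The genes were next grouped by cell type and function. A list of 10 uroplakins and proteins of their trafficking had 8 members higher in the high libraries and none lower, and its 4 marker genes are the rule itself. Of the other 6, Upk3b, Snx31, Mal and Rab27b were higher, beside 2.97% of all genes. Snx31 stood under 1 FPKM in every low library and so passed the filter only through the high ones. Snx31 encodes a sorting nexin that binds uroplakins in multivesicular bodies, and it had 31.4, 62.6 and 71.1 FPKM in BPB and 41.5 in BPAF 1, against 0 and 0 in BPAF 2 and 3 and 0, 0 and 0.0569 in the controls. It rose in BPB by 5.70 on the log2 scale against control (SE 1.21, limma adjusted p = 0.047) and stood 5.41 above BPAF 2 and 3 in BPAF 1. Mal, a raft protein of apical transport, had 65.2, 93.9 and 105 FPKM in BPB and 73.0 in BPAF 1, against 29.9 and 23.4 in BPAF 2 and 3 and 17.8, 12.7 and 22.3 in the controls, so that it was present in every library and higher in the 4. Upk3b had 35.6 to 61.6 FPKM in high and 1.69 to 3.32 FPKM in low libraries and rose in BPB by 3.87 (SE 0.83, limma adjusted p = 0.048). Rab27b, a GTPase of vesicle delivery to the apical surface, had 12.3 to 20.0 FPKM in high and 0.322 to 5.21 FPKM in low libraries, with a limma adjusted p of 0.176. Upk3bl and Vps33b overlapped between the sets.

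Several of the largest differences lay outside the plaque genes. Psca, a GPI-anchored protein of urothelium and prostate, had 396, 536 and 646 FPKM in BPB and 389.8 in BPAF 1, against 3.35 and 0 in BPAF 2 and 3 and 0, 0.419 and 5.53 in the controls. Its BPB minus control difference was 7.94 (SE 1.79, limma adjusted p = 0.053), short of the threshold. Sptssb, which encodes a small subunit of serine palmitoyltransferase, the first enzyme of sphingolipid synthesis, had 264, 167 and 209 FPKM in BPB and 189 in BPAF 1, against 0.111 and 0.0302 in BPAF 2 and 3 and 0, 0 and 1.28 in the controls. Fam25c had 227, 97.9 and 159 FPKM in BPB and 241 in BPAF 1, against 0 and 0 in BPAF 2 and 3 and 0, 0 and 0.971 in the controls, with BPAF 1 above all 3 BPB libraries. Ivl, the involucrin of the cornified envelope, had 120.4, 107 and 104 FPKM in BPB and 98.3 in BPAF 1, against 0.428 and 0 in BPAF 2 and 3 and 0, 0.113 and 0.742 in the controls, and it rose in BPB by 6.48 (SE 1.41, limma adjusted p = 0.049). These 4 genes stood at 97.9 FPKM or more in each high library and at 5.53 FPKM or less in each low one. They were named for the size of this difference, so the gap is no further result. Fam25c and Ivl stood under 1 FPKM in every low library and so passed the filter only through the high ones.

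Of 20 keratins and adhesion genes known from urothelium, 6 were higher in the high libraries (Krt5, Krt15, Krt18, Cldn4, Cldn8 and Psca) and none lower, beside 2.97% higher among all genes. The median difference of the list was 0.18, beside 0.08 over all genes. Krt15, a keratin of basal layers, had 159, 205 and 281 FPKM in BPB and 93.2 in BPAF 1, against 1.24 and 0 in BPAF 2 and 3 and 0.0316, 0.0687 and 4.26 in the controls. It rose in BPB by 6.87 (SE 1.43, limma adjusted p = 0.044). Krt5, the keratin that marks the basal layer of stratified epithelia, had 131, 179 and 283 FPKM in BPB and 95.8 in BPAF 1, against 1.50 and 0 in BPAF 2 and 3 and 0.726, 0.955 and 71.9 in the controls. The level in control 3 stands out among the low libraries, and there the BPB minus control difference of 4.92 did not pass (limma adjusted p = 0.188). Cldn4, a tight junction protein, had 72.4, 85.1 and 90.6 FPKM in BPB and 78.7 in BPAF 1, against 23.01 and 27.1 in BPAF 2 and 3 and 11.7, 13.1 and 11.7 in the controls, so it was present throughout, and it rose in BPB by 2.66 (SE 0.41, limma adjusted p = 0.021). Cldn8 rose by 4.04 (SE 0.65, limma adjusted p = 0.023), with BPAF 3 at 20.2 FPKM as the highest low library against 31.1 to 42.0 FPKM in the high ones.

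Of the keratins of simple epithelium, which uterus and urothelium both express, Krt18 did not overlap between the sets, and Krt8 and Krt19 did. Krt18 had 295 to 518 FPKM in high and 112 to 247 FPKM in low libraries, with a limma adjusted p of 0.055. Krt8 had 225 to 402 FPKM in high and 89.3 to 484 FPKM in low libraries, and Krt19 had 168 to 244 FPKM and 62.6 to 344 FPKM. Krt20, the keratin of urothelial umbrella cells, overlapped as well. It had 22.3, 28.7 and 38.3 FPKM in BPB and 30.1 in BPAF 1, against 3.87 and 3.34 in BPAF 2 and 3 and 25.2, 22.2 and 1.48 in the controls, with control 1 and control 2 at levels like those of the high libraries.

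Control 3 carried Krt13 and Krt14, keratins of squamous epithelium, without uroplakins. Both also stand on the list of keratins known from urothelium, and neither was higher in the high libraries. Krt14 had 103 FPKM in control 3 and at most 1.60 FPKM in the other 8 libraries. Krt13 had 28.1 FPKM in control 3 and at most 1.61 FPKM elsewhere. Ly6d, a GPI-anchored protein of stratified epithelia, had 542, 454 and 476 FPKM in BPB and 509 in BPAF 1, against 0.829 and 0.502 in BPAF 2 and 3 and 4.63, 0.776 and 43.1 in the controls. The high libraries differ from control 3 in this respect, since they carry Krt5 and Ly6d with at most 1.60 FPKM of Krt13 or Krt14. Of 19 genes for vagina and cervix squamous epithelium that were found, 7 were tested and 2 were higher in the high libraries, Ivl and Krt4. Over all genes 2.97% were higher. Both Ivl and Krt4 stood under 1 FPKM in every low library and were tested only because the high libraries held them. No support is drawn from the count. Krt4 had 21.3, 36.7 and 28.0 FPKM in BPB and 8.89 in BPAF 1, against 0.0643 and 0.0351 in BPAF 2 and 3 and 0.0622, 0.304 and 0.334 in the controls and rose in BPB by 4.56 (SE 0.74, limma adjusted p = 0.023).

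Transcription factors known from urothelial differentiation were among the higher genes. Of 20 tested, 7 were higher in the high libraries and none lower, and the same 7 rose in BPB in limma, beside 2.97% and 2.05% of all genes. Of the 7, 3 stood under 1 FPKM in every low library and so were tested only because the high libraries held them, and no support is drawn from the count. They are Gata3, Foxa1, Grhl3, Pparg, Trp63, Tbx2 and Foxq1. Foxa1, a pioneer factor of urothelial differentiation, had 12.9, 24.5 and 29.1 FPKM in BPB and 8.73 in BPAF 1, against 0 and 0 in BPAF 2 and 3 and 0, 0 and 0 in the controls, and it rose by 4.46 (SE 0.77, limma adjusted p = 0.026). Gata3 had 10.3, 18.0 and 16.6 FPKM in BPB and 6.10 in BPAF 1, against 0.231 and 0.434 in BPAF 2 and 3 and 0.261, 0.338 and 0.0890 in the controls, and it rose by 3.67 (SE 0.58, limma adjusted p = 0.022). All 5 low libraries were at 0.434 FPKM or less for Gata3 and listed at 0 for Foxa1. Foxq1, a forkhead factor, had 44.6, 84.7 and 85.8 FPKM in BPB and 38.0 in BPAF 1, against 1.55 and 0.874 in BPAF 2 and 3 and 0.700, 0.870 and 1.02 in the controls. Grhl3, a grainyhead-like factor needed for umbrella cell differentiation in the mouse, had 12.0 to 30.9 FPKM in high and 0 to 1.65 FPKM in low libraries. Pparg, the nuclear receptor that is also active in adipocytes, had 10.2 to 15.9 FPKM in high and 0.650 to 1.90 FPKM in low libraries. Trp63, the p63 factor of basal cells, had 3.29 to 9.02 FPKM in high and 0.0685 to 0.435 FPKM in low libraries. Factors shared with the uterine epithelium did not separate the libraries: Elf3 had 21.3 to 94.0 FPKM in high and 10.4 to 154 FPKM in low libraries, and Klf5 had 8.36 to 29.0 FPKM and 3.59 to 17.4 FPKM.

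Of 15 tested channels and secreted proteins, 7 were higher in the high libraries and none lower, and 3 rose in BPB in limma, beside 2.97% and 2.05% of all genes. All 3 that rose stood under 1 FPKM in every low library. Shh, the hedgehog ligand that urothelium sends to the underlying mesenchyme, had 12.8, 24.8 and 28.4 FPKM in BPB and 13.7 in BPAF 1, against 0 and 0 in BPAF 2 and 3 and 0, 0 and 0 in the controls. It was thus listed at 0 in every low library, and it rose in BPB by 4.45 (SE 0.89, limma adjusted p = 0.04). Aqp3 had 86.1, 136 and 164 FPKM in BPB and 89.7 in BPAF 1, against 0.668 and 0.154 in BPAF 2 and 3 and 0.612, 0.333 and 2.44 in the controls. Its difference was 6.01 for BPB minus control (SE 1.37, limma adjusted p = 0.055) and 6.03 for BPAF 1 minus BPAF 2 and 3. Near equality of these readings was among the rules that named Aqp3, so no support is drawn from it. Scnn1g, a subunit of the epithelial sodium channel, had 3.96 to 14.0 FPKM in high and 0 to 0.475 FPKM in low libraries and rose by 3.19 (SE 0.58, limma adjusted p = 0.03). Sprr1a, a cornified envelope protein, had 409, 657 and 642 FPKM in BPB and 283 in BPAF 1, against 14.96 and 0.0928 in BPAF 2 and 3 and 30.0, 7.70 and 26.3 in the controls, so that it was not near 0 in 4 of the 5 low libraries. Its limma adjusted p was 0.154. Aqp4, Trpv4, Piezo1 and Gjb2 overlapped between the sets.

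Enzymes that conjugate foreign compounds formed the list with the most higher genes by count. For its size the uroplakin list had more, 8 of 10. Of 27 tested genes of glutathione and other phase II conjugation, 14 were higher in the high libraries and none lower, and 8 rose in BPB in limma, beside 2.97% and 2.05% of all genes. Of the 14 genes and of the 8, 4 stood under 1 FPKM in every low library. Gsta4, a glutathione transferase that acts on lipid peroxidation products, had 709, 763 and 704 FPKM in BPB and 632 in BPAF 1, against 32.9 and 45.5 in BPAF 2 and 3 and 8.31, 8.37 and 24.4 in the controls. It rose in BPB by 5.80 (SE 0.95, limma adjusted p = 0.023) and stood 3.99 above BPAF 2 and 3 in BPAF 1. Gstm1 had 612, 971 and 988 FPKM in BPB and 449 in BPAF 1, against 18.7 and 33.0 in BPAF 2 and 3 and 11.2, 26.3 and 6.27 in the controls. It rose in BPB by 5.97 (SE 1.01, limma adjusted p = 0.026), although Gstm genes are near-identical copies and reads may be shared among them and with the pseudogene Gstm2-ps1, which had 148 to 322 FPKM in high and 0.724 to 10.6 FPKM in low libraries. Gsta2, Gstm4, Gstt3, Mgst2, Gstm3 and the glucuronosyltransferase gene Ugt2b34 were the other 6 that rose. Ugt2b34 had 5.74 to 20.6 FPKM in high and 0.0718 to 0.545 FPKM in low libraries. Nqo1, a quinone reductase, had 28.7, 72.7 and 66.2 FPKM in BPB and 30.4 in BPAF 1, against 9.92 and 1.40 in BPAF 2 and 3 and 7.81, 4.04 and 12.2 in the controls, and its limma adjusted p was 0.133.

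Of 18 tested cytochromes P450 and related oxidising enzymes, 6 were higher in the high libraries and none lower, and 2 rose in BPB in limma, Fmo5 and Cyp1a1, beside 2.97% and 2.05% of all genes. Of the 6, 3 stood under 1 FPKM in every low library, Cyp1a1 among them. Fmo5, a flavin monooxygenase, had 46.6, 103 and 109.8 FPKM in BPB and 60.8 in BPAF 1, against 0.423 and 1.21 in BPAF 2 and 3 and 0.464, 0.351 and 0.198 in the controls and rose in BPB by 5.94 (SE 1.17, limma adjusted p = 0.038). Cyp1a1, an aryl hydrocarbon receptor target, was weaker, with 1.10, 4.72 and 5.10 FPKM in BPB and 0.476 in BPAF 1, against 0.131 and 0.314 in BPAF 2 and 3 and 0.177, 0.303 and 0.121 in the controls, and rose in BPB by 1.80 (SE 0.38, limma adjusted p = 0.047). Its level in BPAF 1 was 13.1% of the BPB mean, while that of Fmo5 was 70.2%. Cyp1a1 reached 1 FPKM in the BPB libraries alone, which favours a low percentage in BPAF 1. Aldh3a1, an aldehyde dehydrogenase, differed among the high libraries themselves, with 1.37, 22.6 and 37.2 FPKM in BPB and 11.6 FPKM in BPAF 1, against 0 to 0.317 FPKM in the low libraries. The conjugation and urothelial lists moved in the same libraries, and which cells hold these transcripts was not tested.

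The high libraries were not only higher in epithelial genes. Of 15 tested genes of bladder smooth muscle and mesenchyme, 7 were higher in the high libraries and none lower, and 9 rose in BPB in limma, beside 2.97% and 2.05% of all genes. Of the 7 and of the 9, 6 stood under 1 FPKM in every low library (Pitx1, Tbx20, Chrm2, P2rx1, Hoxd13 and Hoxa13). These 6 were tested only because the high libraries held them, so they had to differ, and no support is drawn from the count. P2rx1, the ATP-gated channel through which nerves contract bladder muscle, had 74.5, 126 and 177 FPKM in BPB and 15.9 in BPAF 1, against 0.367 and 0.510 in BPAF 2 and 3 and 0.436, 0.474 and 0.309 in the controls. It rose in BPB by 6.41 (SE 0.83, limma adjusted p = 0.014) and stood 3.56 above BPAF 2 and 3 in BPAF 1. Chrm2, a muscarinic acetylcholine receptor of bladder muscle, had 4.07, 5.62 and 2.91 FPKM in BPB and 0.363 in BPAF 1, against 0.0330 and 0.0480 in BPAF 2 and 3 and 0.0213, 0.0579 and 0.0255 in the controls, and it rose by 2.30 (SE 0.25, limma adjusted p = 0.01). Genes of position along the body axis belonged to the same group. Hoxd13 had 4.22, 5.91 and 5.08 FPKM in BPB and 0.911 in BPAF 1, against 0 and 0 in BPAF 2 and 3 and 0, 0 and 0 in the controls, and it rose by 2.59 (SE 0.28, limma adjusted p = 0.01). Pitx1, a homeobox gene of the hind part of the embryo, had 12.2, 17.7 and 13.4 FPKM in BPB and 2.29 in BPAF 1, against 0 and 0.0483 in BPAF 2 and 3 and 0, 0 and 0.102 in the controls. Hoxa13, which patterns the lower end of the urogenital tract, had 1.64 to 6.14 FPKM in high and 0 to 0.325 FPKM in low libraries. Hoxd13 was listed at 0 in every low library, Pitx1 reached at most 0.102 FPKM there, and all 3 genes were present in each high library.

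BPAF 1 was placed differently for the urothelial lists and for the bladder muscle list. Over the 408 higher genes, the level in BPAF 1 was a median 69.4% of the BPB mean (quartiles 48.3% and 91.4%), and over all genes it was 104%. Among higher genes by list, the median was 69.3% for uroplakins and trafficking, 75.2% for keratins and adhesion, 62.3% for channels, 48.7% for transcription factors, 67.4% for conjugation and 63.2% for P450 and related enzymes. It was 15.9% for bladder muscle and mesenchyme and 14.3% for skeletal muscle genes. The latter are only 2 genes, Ckm at 26.3% and Myh2 at 2.28%, and Myh2 had just 0.0514 FPKM in BPAF 1. Chrm2, Hoxd13, Myh2 and Cyp1a1 reached 1 FPKM in the BPB libraries alone, which favours a low percentage in BPAF 1. Named genes of the lists often showed the same order, although the conjugation and P450 genes spanned 13.1% (Cyp1a1) to 142% (Gstp2): Upk3a reached 71.0% and Gsta4 87.2% of the BPB mean in BPAF 1, whereas P2rx1 reached 12.7%, Pitx1 15.9% and Chrm2 8.65%. Ly6d reached 104%. The mean of the bladder muscle list was 3.62 to 3.98 on the log2(FPKM + 1) scale in BPB and 2.51 in BPAF 1, against 1.34 to 1.83 in the low libraries. On the mean of this list BPAF 1 stood between BPB and the low libraries, and with 1 library this order has no replicate.

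**Figure D3:**
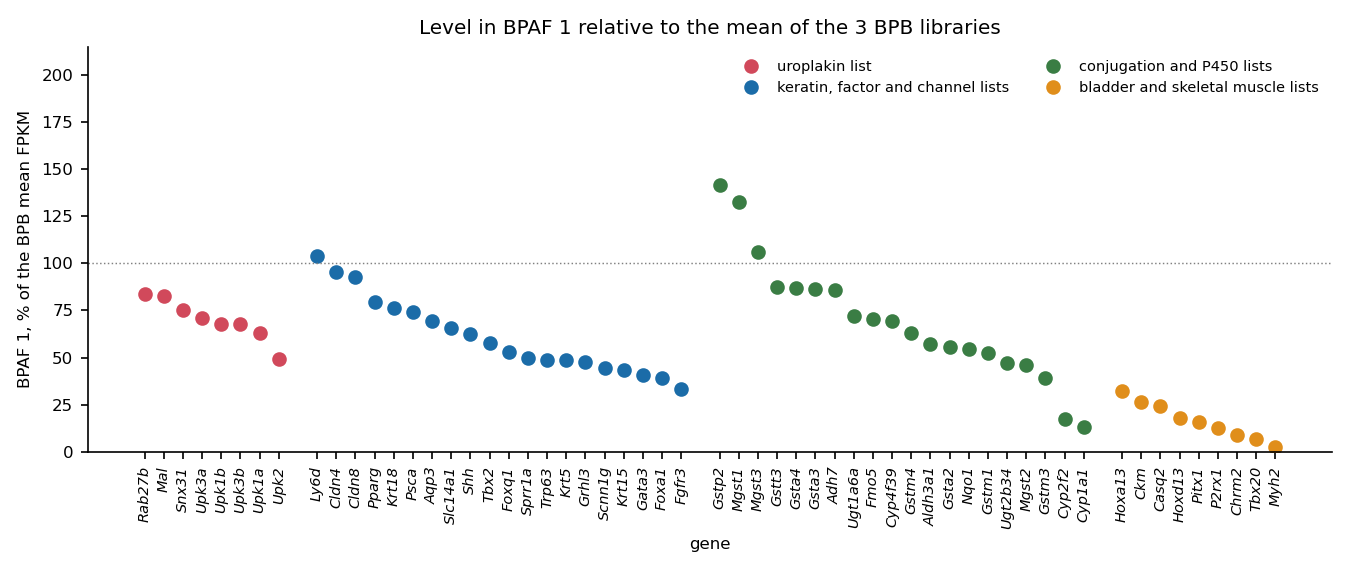
Level in BPAF 1 as a percentage of the mean FPKM of the 3 BPB libraries (vertical) for each list gene that was higher in the high libraries (horizontal), coloured by list, with the dotted line at 100. Uroplakin genes lie between 49.4% and 83.6%, and the muscle genes at the right lie between 2.28% and 32.2%.

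Contractile genes that uterus and bladder share were mostly highest in BPB. Of 20 tested, none was higher in the high libraries by the rule, but in 13 the 3 BPB libraries lay above the other 6 with BPAF 1 inside the range of the low ones, a pattern that 2.01% of all genes showed. Against BPAF 2 and 3 alone, BPAF 1 was above both in 10 of the 20 and below both in none, beside 34.3% and 29.9% of all genes. The median BPAF 1 minus BPAF 2 and 3 difference was 0.72, beside 0.04 over all genes. Myh11, the smooth muscle myosin heavy chain, had 534, 1065 and 1222 FPKM in BPB and 169 in BPAF 1, against 229 and 87.8 in BPAF 2 and 3 and 424, 503 and 239 in the controls. Its BPB minus control difference of 1.25 did not pass (limma adjusted p = 0.214). Synpo2 and Hspb6 were the 2 members that rose in BPB in limma (10% of the list, beside 2.05% of all genes). Synpo2, an actin-binding protein of muscle, had 41.3, 43.7 and 58.4 FPKM in BPB and 12.8 in BPAF 1, against 13.3 and 10.1 in BPAF 2 and 3 and 12.6, 20.8 and 15.2 in the controls, and it rose by 1.51 (SE 0.26, limma adjusted p = 0.026). Synm, an intermediate filament protein of muscle, had 41.5, 87.5 and 103 FPKM in BPB and 7.36 in BPAF 1, against 4.69 and 5.47 in BPAF 2 and 3 and 8.09, 12.3 and 3.41 in the controls, and it rose by 3.17 (SE 0.45, limma adjusted p = 0.018). Pde5a, the cyclic GMP phosphodiesterase of smooth muscle, had 18.4, 32.2 and 28.0 FPKM in BPB and 2.95 in BPAF 1, against 4.15 and 5.77 in BPAF 2 and 3 and 1.52, 3.72 and 2.58 in the controls, and it rose by 2.93 (SE 0.33, limma adjusted p = 0.01). Synm and Pde5a were named because BPB lay above the other 6 libraries with BPAF 1 inside the range of the low ones. That place of BPAF 1 is thus the rule and not a result.

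Lists for other tissues were read in the same way. Of 9 tested skeletal muscle genes, 2 were higher in the high libraries, Ckm and Myh2, and both rose in BPB in limma. Over all genes 2.97% were higher and 2.05% rose. Ckm, the muscle creatine kinase, had 56.4, 53.5 and 70.0 FPKM in BPB and 15.8 in BPAF 1, against 2.66 and 1.06 in BPAF 2 and 3 and 5.95, 4.28 and 3.92 in the controls, and it rose by 3.42 (SE 0.63, limma adjusted p = 0.031). Myh2, a fast skeletal myosin, had 1.84 to 2.73 FPKM in BPB and at most 0.0514 FPKM in the other 6 libraries. It thus passed the filter only through the BPB libraries. Of 12 nerve and glia genes, 3 were higher (Uchl1, S100b and Cdh19), with limma adjusted p from 0.077 to 0.152 in BPB against control. All 3 stood under 1 FPKM in every low library and were tested only because the high libraries held them. No support is drawn from that count. Of 20 genes of adventitial fibroblasts and stroma, Clec3b and Pi16 were higher, beside 2.97% of all genes. Clec3b, a plasminogen-binding lectin, had 126, 128 and 86.2 FPKM in BPB and 78.8 in BPAF 1, against 8.10 and 9.97 in BPAF 2 and 3 and 27.1, 20.0 and 15.05 in the controls, and its limma adjusted p was 0.118. Pi16 had 7.32 to 16.7 FPKM in high and 1.38 to 4.43 FPKM in low libraries and rose in BPB by 2.23 (SE 0.41, limma adjusted p = 0.03).

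Of 12 mesothelial genes, Upk3b and Nkain4 were higher and Slc39a8 lower, beside 2.97% and 0.335% of all genes. Upk3b also stands on the uroplakin list, and Msln, the mesothelin, overlapped with 1.24 to 11.9 FPKM in high and 0.778 to 7.53 FPKM in low libraries. Of 6 tested intestinal genes, Gpa33 was higher, while 5 members of that list stood under 0.1 FPKM in all 9 libraries and 2 of them at 0. Gpa33 stood under 1 FPKM in every low library and so passed the filter only through the high ones. None of 7 tested kidney tubule genes was higher or lower, and 7 members of that list stood under 0.1 FPKM in all 9 libraries. Of 19 genes of male accessory and preputial or skin glands found in the files, 10 were at 0 in every library and 1 was tested. Other members of these lists were expressed. The summed level was 41.1 to 319 FPKM in high and 65.3 to 552 FPKM in low libraries for the kidney list, with Hsd11b2 at 28.5 to 118 FPKM and 16.6 to 278 FPKM. It was 36.8 to 68.9 FPKM in high and 23.4 to 239 FPKM in low libraries for the gut list, and 1.44 to 118 FPKM in high and 0.244 to 2114 FPKM in low libraries for the male gland list, where Spink1 held most of it in BPAF 3. On all 3 sums the sets overlapped, and the part of these tissues in the results was not tested. None of 13 adipocyte, 14 macrophage, 11 lymphocyte, 15 endothelial or 25 mitosis genes was higher or lower by the rule, and the same held for 25 cytosolic ribosomal protein genes.

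**Figure D4:**
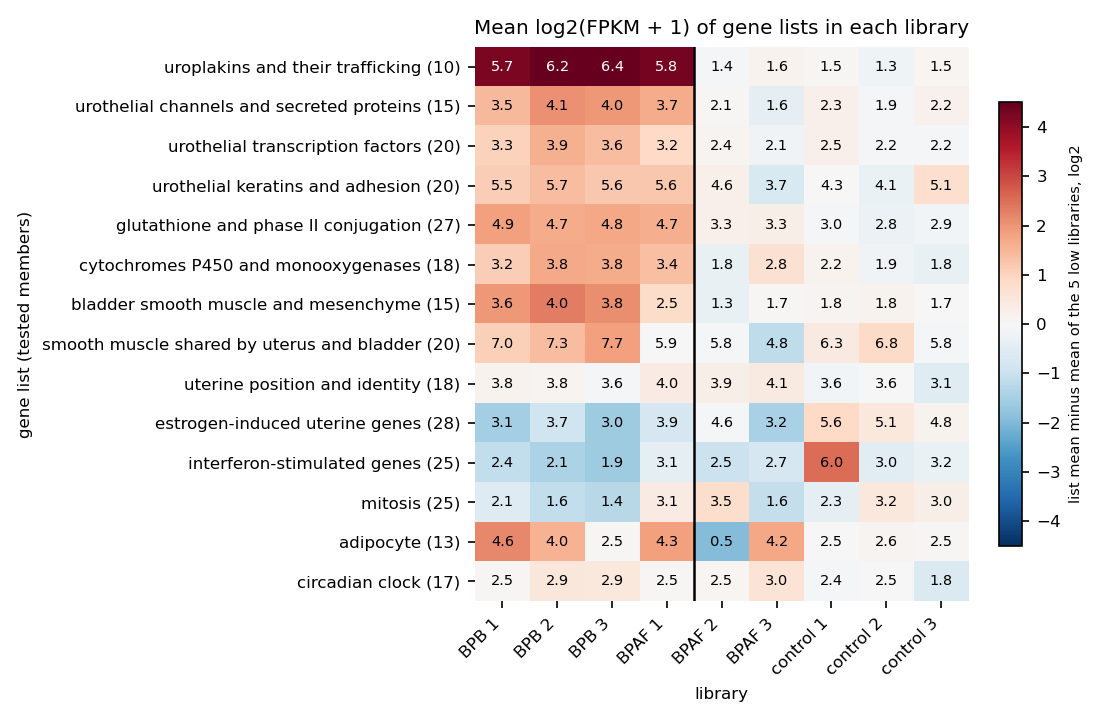
Mean log2(FPKM + 1) of the tested members of 14 gene lists (rows) in the 9 libraries (columns, the 4 high ones left of the black line), with colour for the difference from the mean of the 5 low libraries. The uroplakin list mean lies between 5.71 and 6.42 in the high and between 1.27 and 1.63 in the low libraries, the bladder muscle list is lower in BPAF 1 than in BPB, and the interferon list is highest in control 1.

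The 46 lower genes were fewer and smaller in size. Krt12 was the most different and had 0.814, 0.657 and 1.25 FPKM in BPB and 1.09 in BPAF 1, against 14.6 and 16.6 in BPAF 2 and 3 and 14.5, 10.4 and 11.3 in the controls. Its difference was -2.78 for BPB minus control (SE 0.69, limma adjusted p = 0.071, short of the threshold) and -2.98 for BPAF 1 minus BPAF 2 and 3. Near equality of these readings was among the rules that named Krt12, so no support is drawn from it. Oxtr, the oxytocin receptor of the myometrium, had 0.951, 2.37 and 3.20 FPKM in BPB and 1.07 in BPAF 1, against 13.5 and 3.27 in BPAF 2 and 3 and 39.7, 56.4 and 14.7 in the controls. It fell in BPB by 3.46 (SE 0.71, limma adjusted p = 0.042), and BPAF 3 stood just outside the range of the high libraries. Ier3, an immediate early gene, had 21.9, 21.9 and 43.5 FPKM in BPB and 15.9 in BPAF 1, against 72.9 and 94.1 in BPAF 2 and 3 and 187, 92.0 and 135 in the controls, with a limma adjusted p of 0.096. Dusp6, a phosphatase that ERK signaling induces, had 12.0, 18.8 and 13.8 FPKM in BPB and 13.8 in BPAF 1, against 45.5 and 22.1 in BPAF 2 and 3 and 93.6, 43.7 and 95.4 in the controls, and it fell in BPB with a difference of -2.25 (SE 0.45, limma adjusted p = 0.04). Slc34a2, a phosphate transporter, fell in BPB with a difference of -2.39 (SE 0.42, limma adjusted p = 0.028), but BPAF 1 at 2.09 FPKM was barely below BPAF 2 and 3 at 2.25 and 2.64 FPKM. Agr2, a protein disulfide isomerase of secretory cells, had 4.34 to 6.63 FPKM in high and 9.41 to 65.9 FPKM in low libraries.

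Of 28 tested genes that estrogen induces in the uterus, 1 was lower in the high libraries (Oxtr) and none higher. Over all genes 0.335% were lower and 2.97% higher. In limma 5 fell in BPB (17.9% of the list, beside 0.502% of all genes). The 5 are Oxtr, Nppc, Lox, Sprr2b and Sprr2g. Nppc, the C-type natriuretic peptide, had 0.460, 0 and 0 FPKM in BPB and 0.0749 in BPAF 1, against 2.30 and 0.0717 in BPAF 2 and 3 and 23.2, 31.8 and 5.02 in the controls. Lox, the lysyl oxidase that crosslinks collagen, had 6.40, 4.22 and 10.1 FPKM in BPB and 16.1 in BPAF 1, against 13.0 and 26.2 in BPAF 2 and 3 and 52.3, 73.7 and 59.0 in the controls, and it fell with a difference of -3.04 (SE 0.35, limma adjusted p = 0.01). BPAF 1 lay between BPAF 2 and BPAF 3 for Lox, and all 3 lay between BPB and the controls. Sprr2b had 7.69, 0.898 and 0.285 FPKM in BPB and 5.97 in BPAF 1, against 13.4 and 0 in BPAF 2 and 3 and 112, 175 and 88.2 in the controls, and Sprr2 genes are close copies whose reads may be shared. The list mean was 3.05 to 3.89 in high and 3.20 to 5.56 in low libraries, so that the sets overlapped.

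**Figure D5:**
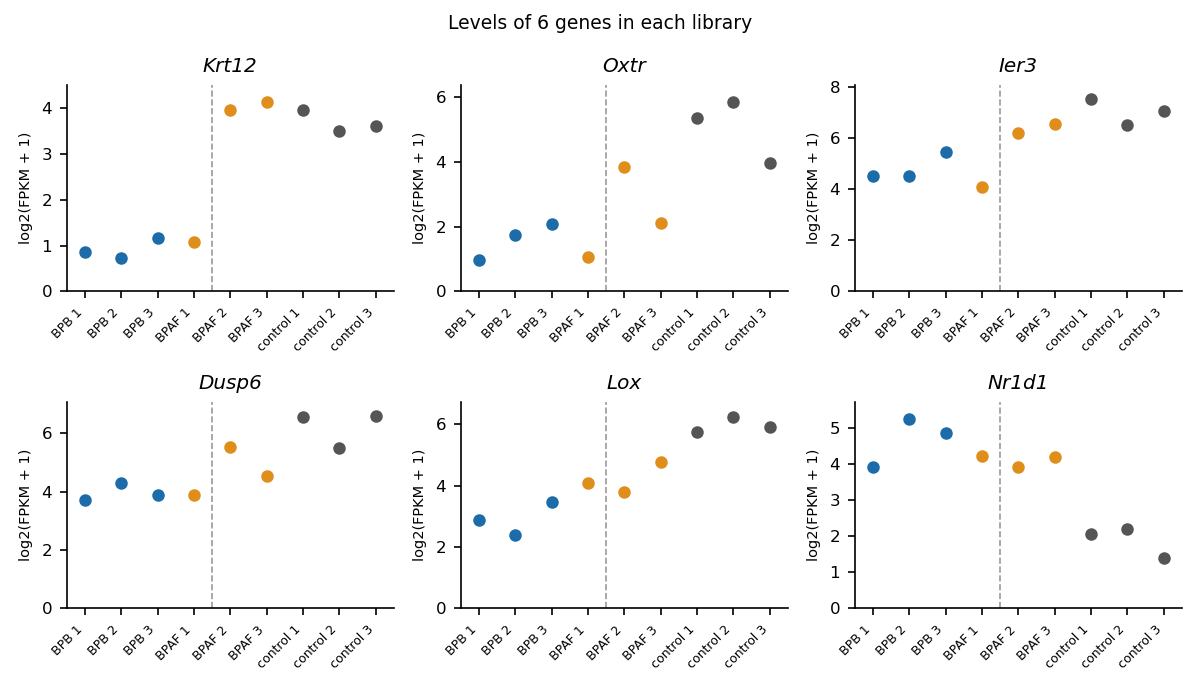
Level of Krt12, Oxtr, Ier3, Dusp6, Lox and Nr1d1 as log2(FPKM + 1) in each library, with BPB blue, BPAF orange and control grey, and the 4 high libraries left of the dashed line. Krt12, Oxtr, Ier3 and Dusp6 are lower in all 4 high libraries, whereas in Lox and Nr1d1 BPAF 1 lies near BPAF 2 and 3.

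Other genes changed with BPB without following BPAF 1. Of all genes, 137 (0.997%) had the 3 BPB libraries below the other 6 with BPAF 1 inside the range of the low ones, and 9 of the 25 interferon-stimulated genes were among them. Of those 25, none was higher and 1 was lower in the high libraries (Oas2), beside 2.97% and 0.335% of all genes. In limma 2 fell in BPB, Bst2 and Rtp4, or 8% of the list, beside 0.502% of all genes. Rtp4, an interferon-stimulated gene, had 11.7, 5.74 and 3.03 FPKM in BPB and 28.1 in BPAF 1, against 16.2 and 14.4 in BPAF 2 and 3 and 102, 21.5 and 54.5 in the controls, and it fell in BPB with a difference of -2.85 (SE 0.58, limma adjusted p = 0.042). Mx1, an antiviral GTPase, had 0.573, 0.658 and 0.0993 FPKM in BPB and 2.06 in BPAF 1, against 3.57 and 0.796 in BPAF 2 and 3 and 81.9, 2.24 and 6.48 in the controls. Control 1 stood far above the other libraries for Mx1. The median high minus low difference of the list was -1.20 with control 1 and -0.47 without it, and over all genes it was 0.08 and 0.07. For Mx1 it was -2.02 and -1.13, and for Oas2 -1.80 and -1.13.

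Among genes of the circadian clock, 3 that were chosen after their values were seen differed with treatment and not with the uroplakin split. Nr1d1, which encodes the repressor REV-ERB alpha, had 14.0, 37.6 and 28.1 FPKM in BPB and 17.8 in BPAF 1, against 14.1 and 17.5 in BPAF 2 and 3 and 3.22, 3.60 and 1.65 in the controls, and it rose in BPB by 2.79 (SE 0.36, limma adjusted p = 0.014). Dbp, a clock-controlled activator, had 5.65, 13.4 and 9.11 FPKM in BPB and 15.7 in BPAF 1, against 8.90 and 7.68 in BPAF 2 and 3 and 1.41, 1.35 and 1.79 in the controls. Nr1d2, a paralog of Nr1d1, had 15.3, 26.0 and 19.2 FPKM in BPB and 28.8 in BPAF 1, against 22.8 and 35.1 in BPAF 2 and 3 and 5.68, 5.74 and 9.55 in the controls. In all 3 genes the 6 bisphenol libraries lay above the 3 controls, high and low alike. The share of all genes with that pattern was not computed, and BPAF against control was not tested. None of 17 clock genes was higher or lower in the high libraries, beside 2.97% and 0.335% of all genes. For a list of 17 genes, none is near those shares. In limma 3 of the 17 rose in BPB, or 17.6%, beside 2.05% of all genes. The time of collection is not given in the labels.

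Of the 85 genes named by rule, 84 are in the annotation GENCODE M21 and 21 overlap an exon of another gene there, 5 of them a gene that was tested. These 5 are Gata3, Shh, Synm, Hspb6 and Ugt1a6b. Whether the counting used the strand is not given, so their values may include reads of the overlapping gene. Other genes were named because their differences were nearly equal in both readings, so that equality is the rule and not a result. Tspan6, a tetraspanin, had 25.8 to 41.6 FPKM in high and 4.41 to 8.69 FPKM in low libraries, with differences of 2.37 and 2.35. Aldh3b2 had 24.1 to 45.4 FPKM in high and 0.0960 to 1.15 FPKM in low libraries, with differences of 4.45 and 4.42.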

How the data were processed

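RNA was measured in 9 uterus libraries with a stranded mRNA kit, per the labels' protocols. There is 1 deposited file per library, listing gene symbols and unlabelled values. These were taken to be FPKM made by the authors, because 93.5% to 95.2% of the low values came out as whole reads within 0.01 when scaled by the transcript length of genes that have 1 transcript in GENCODE M21. Not given in the sources used here are genome build, aligner, read counter and earlier filters. Of 34745 lines, 126 with 1 of 59 repeated symbols were left out, and 27 of the 34619 symbols left look like dates.

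A gene was kept if 3 or more libraries had it at 1 FPKM or above (13743 genes). Levels were compared as log2(FPKM + 1), which understates changes of low genes. BPB and control were compared with limma 3.58.1 in R 4.3.3 (trend, robust, two-sided, Benjamini-Hochberg over all genes), and the other steps ran in Python 3.11.15. The same fit was tested on simulated data. High against low and BPAF 1 against BPAF 2 and 3 have no test.

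The libraries, the 30 gene lists and the tests were chosen with earlier results of these data known. Named genes were the 4 markers, the 15 largest positive and 12 largest negative differences without overlap, up to 4 members per list, up to 8 per direction seen in BPB alone, and up to 8 per direction with differences of 2 or more that were nearest equal in both readings. Other list members named in the text, such as Krt8, Krt14, Hoxa11, Myh11, Synpo2, Nppc and the clock genes, were chosen after their values were seen. Alternatives were other pseudocounts, filters, scaling, thresholds and fits, and each library left out in turn.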

Additional observations from a re-analysis of the deposited data

Results flagged for a closer look

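The mean log2(FPKM + 1) of the interferon list was 6.02 in control 1, far from the other low libraries, which lay between 2.54 and 3.18. The lymphocyte list mean of 3.11 in BPAF 1 stood apart from the 3 BPB libraries, which lay between 1.85 and 2.05. Of 58 such checks of a library within a set these 2 stood apart, and chance gives about 1 in 20. In 6 named genes BPAF 1 lay beyond BPAF 2 and 3 in the direction opposite to BPB against control, and this difference between the readings was not tested. All 6 were named because the BPB libraries lay beyond all others with BPAF 1 inside the range of the low ones. That choice favours genes in which BPAF 1 does not follow BPB, so no support is drawn from the count. Pde5a and Fendrr rose in BPB, with BPAF 1 minus BPAF 2 and 3 at -0.58 and -0.51 on the log2 scale. Rtp4 fell in BPB, with a BPAF value of 0.83. The other 3 genes did not pass in limma and had a negative BPB minus control difference, with a BPAF value of 1.25 for Spp1, 0.42 for Oas1a and 0.48 for Ifi44. For Oas1a the gap to BPAF 2 was small, with 15.9 FPKM in BPAF 1 and 15.5 in BPAF 2. Spp1, which encodes osteopontin, had 2.04, 1.72 and 2.28 FPKM in BPB and 17.6 in BPAF 1, against 4.44 and 10.3 in BPAF 2 and 3 and 20.0, 185 and 9.88 in the controls.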

How the results depend on the processing

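Any single uroplakin gene set apart the same 4 libraries. The count of higher genes was 408 as reported, 260 with 1 FPKM required in 5 libraries and 144 with a difference of 2, and the count of lower genes was 46 as reported and 8 with a difference of 2. A pseudocount of 0.1, no filter or median-ratio scaling kept both counts within 1.5 times, and 319 of the 408 and 42 of the 46 remained under that scaling. With each library left out in turn the counts ran from 368 to 617 and from 32 to 199. The highest values, 617 and 199, came without BPAF 3, and lower genes numbered 84 without BPB 2, 94 without BPAF 1 and 79 without control 3.

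Genes that rose in BPB in limma numbered 282 as reported, 130 with a pseudocount of 0.1, 136 without a filter, 83 with the filter of 5 libraries and 600 at an adjusted p under 0.1. Genes that fell numbered 69 as reported and 22, 27, 16 and 174 under these settings. With median-ratio scaling 198 rose and 112 fell. With each library left out they ran from 0 to 365 and from 1 to 93. The share of genes that rose with BPAF 1 above BPAF 2 and 3 ran from 72.1% to 100%, and that of genes that fell with BPAF 1 below them from 0% to 82.6%, where few genes were left to count and where BPAF 3 left out leaves 1 library to pass. The fit on 6 libraries was added after seeing the data for these shares. The cause of the other changes was not tested. Same-numbered BPB and control libraries had correlated deviations of -0.371, -0.127 and -0.399, so the numbers do not pair BPB with control. Same-numbered BPAF and BPB libraries had 0.343, 0.339 and 0.484, each the highest for its number, a hint from the data and not from the labels. With the replicate number as a block, 11 genes rose and 8 fell, and no BPB library correlated best with the control of its own number.

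No named gene changed direction between high and low libraries under any setting run. Many of these genes were named because the high and low libraries did not overlap. For such genes a changed pseudocount or a library left out cannot reverse the direction. No support is drawn from the unchanged direction of such genes under those settings. List medians changed sign only where they lay between -0.29 and 0.12. Weak genes, those near 1 read per kilobase, depend on depth, and no value here separates cell number from RNA per cell.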

Other observations

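Some genes of uterine glands varied across both sets and all treatments. Prss29, an implantation serine protease, had 0, 0.109 and 1073 FPKM in BPB and 0 in BPAF 1, against 0.174 and 5817 in BPAF 2 and 3 and 0, 379 and 0 in the controls. Prss28, its neighbour in function, had 0.0576, 0 and 311 FPKM in BPB and 0 in BPAF 1, against 0.173 and 2289 in BPAF 2 and 3 and 0, 54.9 and 0 in the controls, and Spink1, a trypsin inhibitor, had 1.14, 0.455 and 116 FPKM in BPB and 0 in BPAF 1, against 0 and 2112 in BPAF 2 and 3 and 0, 26.3 and 0.563 in the controls. The same 3 libraries, BPB 3, BPAF 3 and control 2, held the high levels of all 3 genes, 1 library in each treatment. Fat cell genes also crossed the split: Adipoq, the adiponectin, had 66.7, 21.9 and 3.17 FPKM in BPB and 63.8 in BPAF 1, against 0.0428 and 33.0 in BPAF 2 and 3 and 6.84, 8.93 and 9.90 in the controls, with BPAF 2 lowest. These genes were chosen after their values were seen.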
